A study of Drosophila melanogaster with 2 samples.

Results

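The genes described here are 10 Drosophila genes of the tracheal and epidermal programme: trachealess (trh), ventral veins lacking (vvl), ribbon (rib), serpentine (serp), vermiform (verm), grainy head (grh), ovo, singed (sn), Dopa decarboxylase (Ddc) and krotzkopf verkehrt (kkv). They were taken by name from 13945 annotated protein-coding genes, and each was examined in a window from 2 kb before to 2 kb after the gene body. DNA bound by Six4, a homeodomain transcription factor, was recovered with an anti-GFP antibody from transgenic embryos that stably express Six4 with GFP at its C terminus, and was sequenced (ChIP-seq). Both samples, biological replicates 1 and 3, were whole embryos aged 0 to 16 h with the sexes pooled, so a peak cannot be assigned to tracheal, epidermal or any other cells. What drives expression of the tagged gene is not given in the sources used here. The tagged line was the single group, and an untagged or input control is not analysed here, so conditions could not be compared.

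The tracheal system of the fly is a network of epithelial tubes that forms by invagination and branching of the ectoderm. The transcription factors encoded by trh, vvl and rib specify its cells and shape its tubes, and the chitin deacetylases encoded by serp and verm modify the chitin in the tube lumen and limit tube length. In the epidermis, grh and ovo encode transcription factors of barrier formation and of cell hairs, sn encodes the actin-bundling protein fascin, Ddc encodes the enzyme that makes dopamine, used to harden cuticle, and kkv encodes the chitin synthase of cuticle and trachea. Six4 itself is best known for its role in the mesoderm, a different germ layer.

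The data were peak lists in which the authors' peak caller gave each peak a signal. Replicate 1 was listed with 30000 entries and replicate 3 with 28237, many of them background, and the pooled replicates with 30000. The set that passed the irreproducible discovery rate (IDR) procedure held 3974 peaks, the same as the 3974 strongest pooled entries. Its signal ran from 81.1 to 1741, with a median of 128. Library depths are unknown. Replicate lists have signal scales of their own, so replicates were compared by rank within each list.

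Of the 10 genes 6, namely rib, grh, trh, sn, ovo and Ddc, held an IDR summit in their window, and vvl, serp, verm and kkv held none. Over all protein-coding genes the share with a summit was 31.2%. The 6 genes held 9 summits, with a pair each at rib, grh and sn, that is at 3 of the 10 genes. A share of 9.45% of all protein-coding genes held 2 or more. That share was not split by window length, and the windows of rib, grh and sn were 15.3, 45.7 and 26.6 kb. Long windows more often held at least 1 summit: the share was 26.5% for windows under 10 kb, 43.9% for 10 to 20 kb and 55.2% for windows over 20 kb. All 4 members with windows over 20 kb (trh, grh, ovo and sn) were occupied, against 1 of 3 from 10 to 20 kb (rib) and 1 of 3 under 10 kb (Ddc). These counts describe named genes and carry no test.

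The windows of 4 summits are printed to show the sequence recovered, namely the start of trh and the 3 windows at ovo, sn and Ddc that hold a match to 1 of the 9 motifs searched. Each runs 5′ to 3′ in the direction of the gene over 100 bases to each side of the summit, read from the Release 6 (dm6) genome of RefSeq. Capitals mark matches on either strand to GAGAG, the core bound by GAGA factor (printed as CTCTC where it lies on the other strand), or to CNGTTA, a core bound by Ovo. The window at trh (chr3L:377572-377772, minus strand) has no capitals, since none of the 9 motifs occurs in it. The others are at ovo (chrX:5046664-5046864, plus strand), at sn (chrX:7968350-7968550, plus strand) and at Ddc (chr2L:19121138-19121338, minus strand).
trh: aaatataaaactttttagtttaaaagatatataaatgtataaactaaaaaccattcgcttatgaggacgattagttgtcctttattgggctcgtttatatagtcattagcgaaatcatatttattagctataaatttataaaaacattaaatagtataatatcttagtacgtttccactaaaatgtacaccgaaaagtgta
ovo: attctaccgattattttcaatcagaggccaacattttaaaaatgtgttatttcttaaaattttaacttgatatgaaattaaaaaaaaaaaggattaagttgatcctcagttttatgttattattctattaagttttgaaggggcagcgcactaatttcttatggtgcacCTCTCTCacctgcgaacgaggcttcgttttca
sn: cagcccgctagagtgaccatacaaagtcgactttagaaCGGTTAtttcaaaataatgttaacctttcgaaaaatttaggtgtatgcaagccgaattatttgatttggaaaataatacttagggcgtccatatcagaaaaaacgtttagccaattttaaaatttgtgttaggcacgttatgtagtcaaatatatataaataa
Ddc: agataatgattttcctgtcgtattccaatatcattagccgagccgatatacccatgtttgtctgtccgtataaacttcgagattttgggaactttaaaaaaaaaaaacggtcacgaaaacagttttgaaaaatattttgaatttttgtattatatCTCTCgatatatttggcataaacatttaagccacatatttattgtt

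The windows were rich in A and T. The share of G and C over the 9 summit windows ran from 24.4% at trh to 35.3% at the stronger sn summit, with a median of 31.3%. All IDR summits had a median of 34.3% and quartiles of 30.3% and 38.8%. Of the 9 summits 7 lay in introns, counting introns of overlapping genes, where 46.8% of all IDR summits lay. A transcription start site (TSS) of any gene lay within 500 bp of 3 of them, at trh, grh and sn, against 49.8% of all IDR summits. Among the strongest 3974 entries of replicate 3 alone the number was also 3, of 8 in these windows. For replicate 1 alone it was 1 of 7. The share over all strongest entries of each replicate is not given here.

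Among the tracheal regulators, rib had the highest signal of the 10 genes. Rib is a nuclear protein with a BTB domain that is needed for the lengthening of tracheal and salivary tubes. On 2R, where rib lies on the plus strand (19270078 to 19281396), the stronger peak (19272225 to 19272419, signal 299.8) ranked 375 in the IDR set, 211 in replicate 1 and 541 in replicate 3. The second (19271402 to 19271531, signal 214) ranked 766, and 839 and 791 in the replicates. Both thus stood high in both replicates. The summits were 851 bp apart in the first part of the gene, 2276 and 1425 bp downstream of the start of rib-RB, in an intron. These peaks were narrow, 195 and 130 bp against a median of 424 bp, and 7.47% of IDR peaks were under 200 bp wide. The other start of rib, 5.65 kb further downstream and used by 2 of its 3 transcripts, had an entry below the IDR set as its strongest within 500 bp (signal 63.5, rank 5610). A further IDR summit nearest to rib lay outside the window, 4884 bp upstream (signal 100.3, rank 2909).

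The trh gene encodes a bHLH-PAS protein, the selector of tracheal fate. Its single IDR peak (3L, 377460 to 377883, signal 192) ranked 964, and 541 and 1867 in replicates 1 and 3. It was the least even of the 9 between replicates, with a rank number 3.45 times as large in replicate 3 as in replicate 1; 3.15% of IDR peaks had a ratio that large, and the median ratio was 1.41. The summit was 356 bp upstream of the internal start that serves 5 of the 7 trh transcripts, and lay in an intron of the longer transcripts. At the start of those longer transcripts, 15.3 kb upstream of the internal one, the strongest entry had a signal of 29.4 and a rank of 17664. Occupancy in the IDR set was thus found at the internal start and not at the outer one.

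No IDR summit lay in the window of vvl, which encodes a POU-domain factor needed for the migration of tracheal branches. The pooled list held a single entry there (signal 25.5, rank 22250), in the 5′ untranslated region. The nearest IDR peak (3L, 6823825 to 6824248, signal 187) ranked 1026 in the set, 805 in replicate 1 and 1163 in replicate 3. Its summit was intergenic, 29.1 kb downstream of the gene end. The closest annotated TSS to it, at 33.9 kb, was that of vvl, and by nearest protein-coding TSS 7 of the 10 genes had an IDR summit, against 19.4% of all such genes. Which gene it acts on was not tested.

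The tracheal chitin deacetylase genes serp and verm lie 5.72 kb apart on 3L and were both without an IDR summit. Their strongest pooled entries had signals of 36.2 at serp (rank 12611) and 27.1 at verm (rank 20157). The serp entry lay downstream of the gene, with the start of verm as its closest TSS. The verm entry was in a verm intron, 986 bp downstream of the start. No pooled entry of any rank lay within 500 bp of an annotated start of either gene. The nearest IDR summit to both was a weak peak (signal 85.4, rank 3684), 15.6 kb from verm and 26.5 kb from serp, and its closest protein-coding TSS was that of tey.

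**Figure D1:**
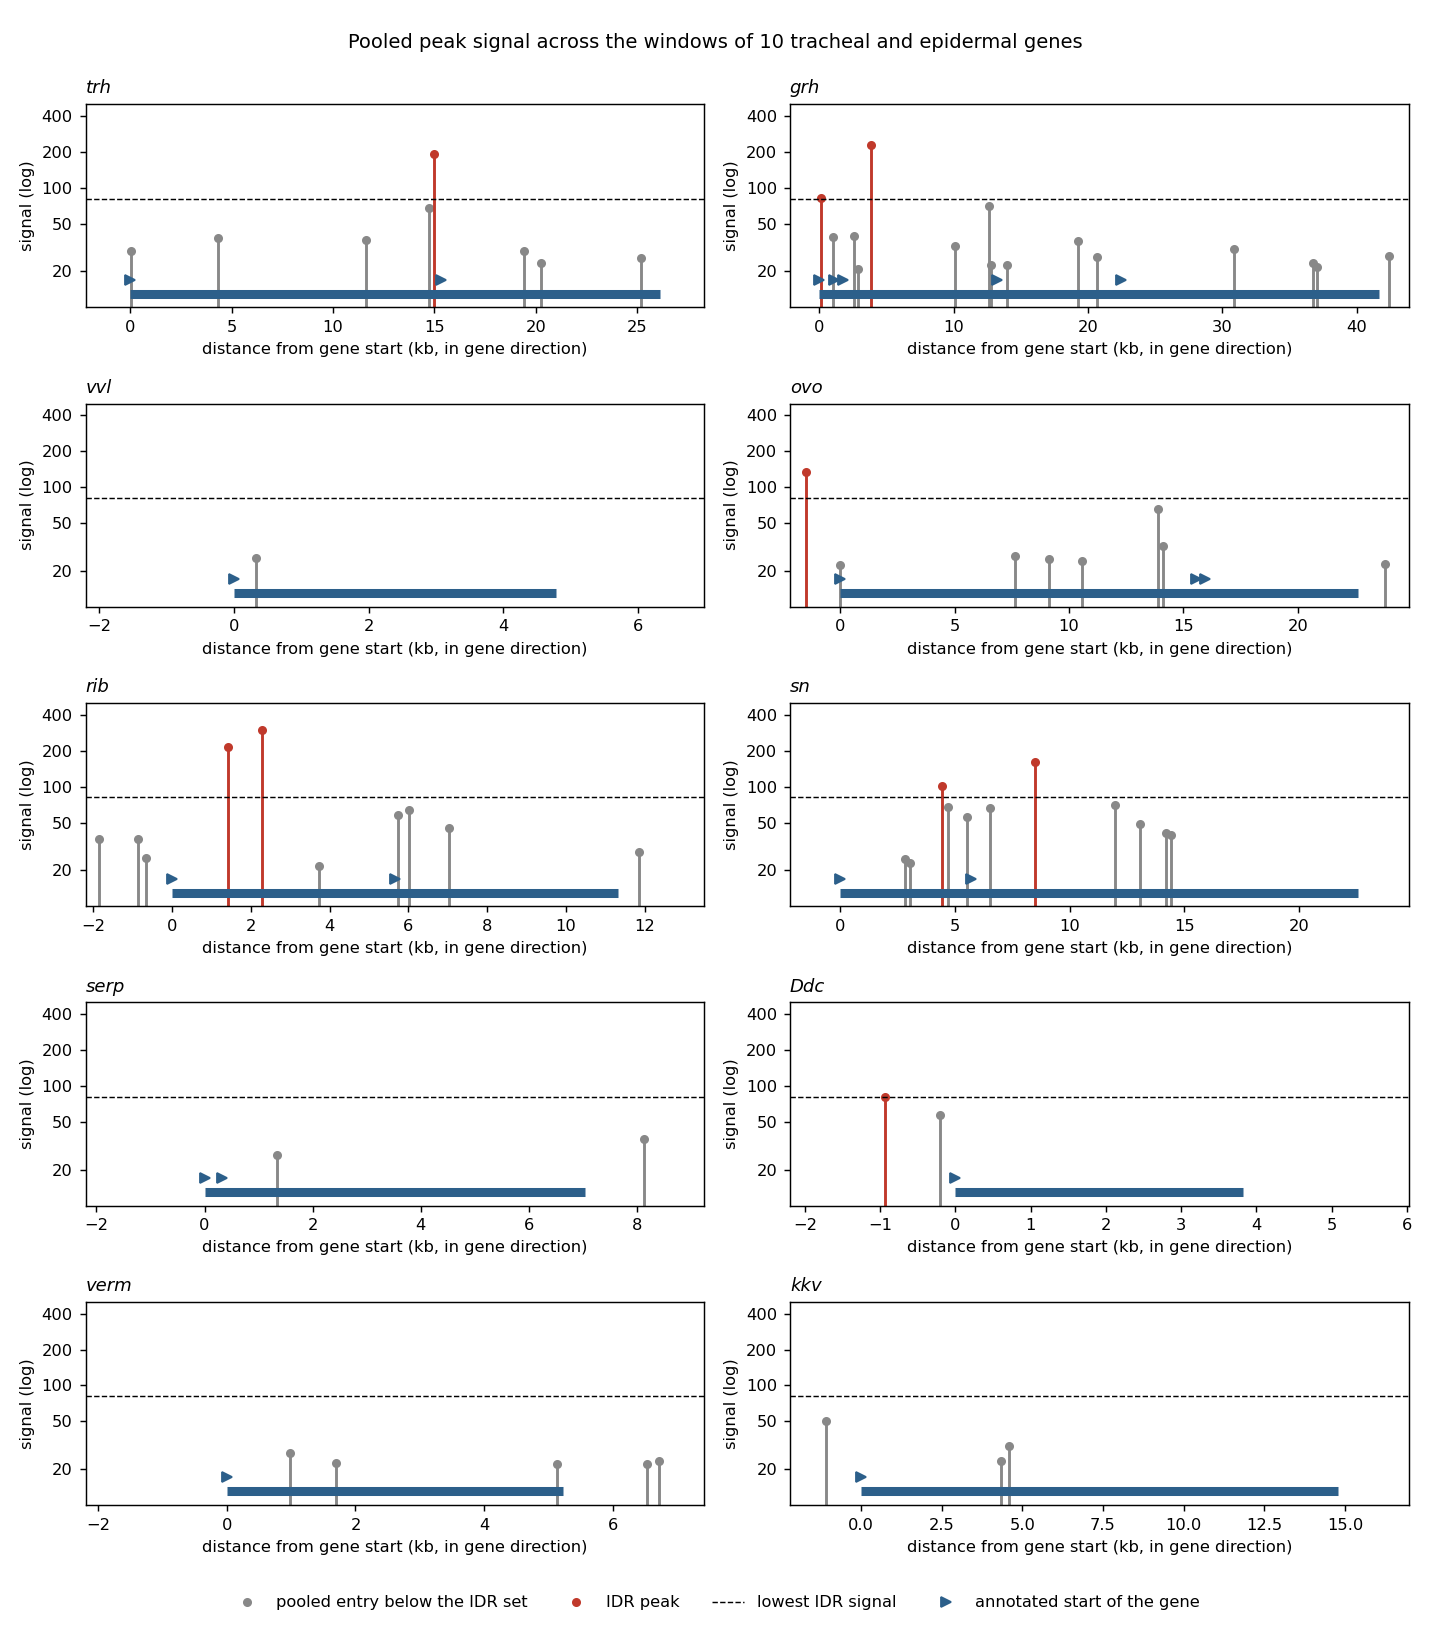
Signal of every entry of the pooled list in the window of each of the 10 genes (y axis, log scale, no unit) against distance from the gene start in kb in the direction of the gene (x axis). Red marks IDR peaks, grey marks entries below the set, the dashed line is the lowest IDR signal of 81.1, blue bars are gene bodies and arrowheads annotated starts. Red peaks stand in the panels of trh, rib, grh, ovo, sn and Ddc, and the panels of vvl, serp, verm and kkv hold grey entries below the line.

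Among the epidermal regulators, grh had an intronic peak of similar rank to those of rib. Grh is the transcription factor that drives epidermal barrier and wound response genes. The stronger grh peak (2R, 17804753 to 17805176, signal 226) ranked 677, and 469 and 892 in the replicates. Its summit was 2098 bp downstream of the start shared by grh-RH, grh-RI and grh-RL. The second peak (2R, 17801061 to 17801484, signal 81.6) lay at the first start of the gene, 141 bp downstream of that of grh-RP and in an exon of the antisense transcript asRNA:CR45270. It ranked 3931, close to the end of the set, and was uneven between replicates, at 8623 in replicate 1 and 3140 in replicate 3. Near the grh start the peak was therefore among the strongest 3974 entries of replicate 3 but not of replicate 1. A further 13 entries below the IDR set lay in the 45.7 kb window, led by 1 with a signal of 70.1 (rank 4899).

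The ovo gene encodes a zinc finger factor whose embryonic form directs the epidermal cells to make hairs and denticles. Its IDR peak (X, 5046552 to 5046975, signal 135) ranked 1819, and 2183 and 1811 in the replicates. The position was 1509 bp upstream of the outermost start, that of ovo-RB and ovo-RE, in an intron of lncRNA:CR44833. This summit is inside the 2 kb extension but outside the gene body. The inner starts at 15.6 and 16.0 kb had no pooled entry within 500 bp, and the next strongest entry (signal 66.0, rank 5323) lay 1655 bp upstream of the first of them. Another IDR summit nearest to ovo, 6539 bp upstream and outside the window, was one of the weakest of the set (signal 81.1, rank 3972) and ranked 2783 in replicate 1 and 6421 in replicate 3.

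Among the effector genes, sn held a pair of IDR peaks. Fascin, its product, bundles the actin filaments of bristles and hairs. The stronger peak (X, 7972313 to 7972736, signal 162) ranked 1334, and 1929 and 1070 in the replicates, with its summit 2822 bp downstream of the start used by 3 of the 4 sn transcripts. The weaker peak (X, 7968238 to 7968661, signal 102) ranked 2837, and 6292 and 2195 in the replicates, so replicate 1 did not hold it among its strongest 3974. It lay 4075 bp from the first, in an sn intron but 214 bp upstream of a start of sws, a gene whose body overlaps that of sn, so the peak counts for both genes. In the window 9 more pooled entries stayed below the IDR set, the strongest of them with a signal of 69.9 (rank 4904). The 2 starts of sn differed: the inner start had an entry within 500 bp (signal 55.2, rank 6826) and the outer one had none.

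The Ddc peak was the weakest of the 9. It lay on 2L (19121026 to 19121449, signal 81.3) and ranked 3960 of 3974, with 2540 in replicate 1 and 4260 in replicate 3. The summit was 932 bp upstream of the single Ddc start, between Ddc and Phb1. The replicate summits lay on opposite sides of it, 63 bp away in replicate 1 (19121175) and 140 bp in replicate 3 (19121378). The medians over all IDR peaks were 13 and 14 bp. The replicate 3 summit was in the 3′ untranslated region of Phb1, where replicate 1 had a weaker entry of its own (rank 15077). An annotated INE-1 transposable element of 70 bp (19121240 to 19121309) lies inside the peak, beside the pooled summit and between those of the replicates. The treatment of reads from repeated sequence is not given in the sources used here, and its part in this peak was not tested. An entry 199 bp upstream of the Ddc start stayed below the set (signal 56.8, rank 6558).

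The chitin synthase gene kkv had no IDR summit. Its strongest pooled entry (3R, signal 50.01, rank 7813) was found in both replicates, at rank 7913 in replicate 1 and 10545 in replicate 3. That entry lay 1073 bp upstream of the kkv start but 17 bp downstream of the start of CG1172, the neighbouring gene. No entry of the pooled list lay within 500 bp of the kkv start. The nearest IDR summit, 6.38 kb from the gene, was at the promoter of Polr2F (signal 197).

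Read against all genes, the strongest entries spread over most of the range. An entry as strong as the strongest at rib was found at 4.53% of protein-coding genes, against 7.63% for grh, 10.3% for trh, 14.0% for sn, 17.8% for ovo and 31.1% for Ddc. The figure was 46.3% for kkv, 57.8% for serp, 68.6% for verm and 70.7% for vvl. These shares are not corrected for window length. Every one of the 10 genes had a pooled entry below the IDR set in its window, as did 73.4% of all protein-coding genes. The windows of the 10 were longer, with a median of 17.05 kb against 6.17 kb over all protein-coding genes. Per 10 kb of window the median number of pooled entries of any rank was 2.83, against 2.51 over protein-coding genes. The entries just inside the IDR threshold were those of Ddc (81.3) and of the grh start (81.6), and the nearest outside were at grh (70.1) and sn (69.9 and 67.8), followed by trh (67.3).

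**Figure D2:**
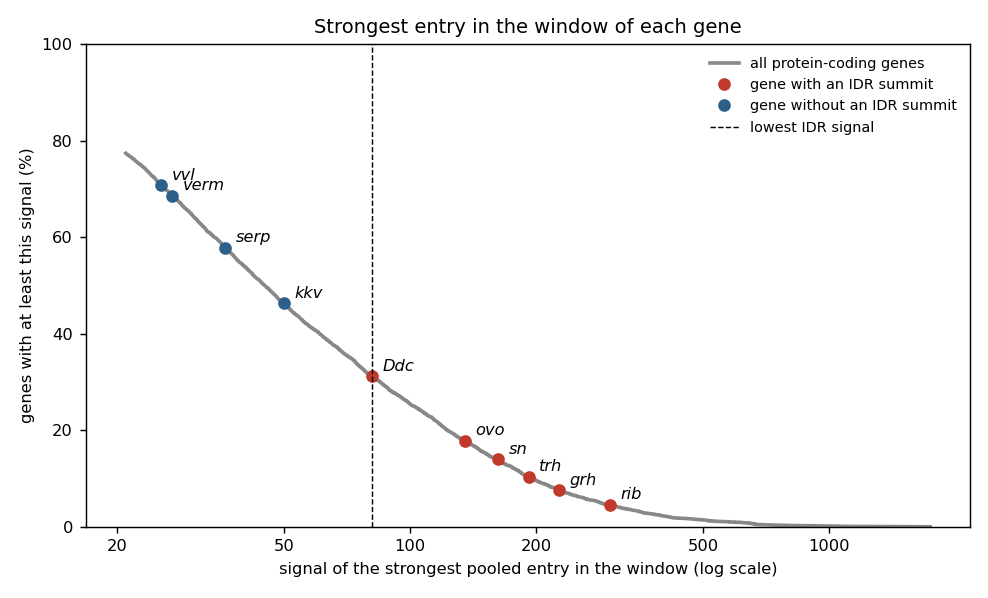
The curve gives the share of protein-coding genes (y axis, percent) whose strongest pooled entry reaches a given signal (x axis, log scale, no unit). Points are the 10 genes, red with and blue without an IDR summit, and the dashed line is the lowest IDR signal. The points run from vvl at 70.7% to rib at 4.53%, and the shares are not corrected for window length.

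All 9 peaks overlapped an entry of both replicates, as did 99.9% of IDR peaks. Of the 9, 6 were among the strongest 3974 entries of both replicates, against 78.2% of all IDR peaks. In replicate 1 the number was 7 (86.7% of all IDR peaks), with the peaks at the grh start and at the start of sws missing, and in replicate 3 it was 8 (90.8% of all IDR peaks), with Ddc missing. Taken singly, the strongest 3974 entries of replicate 1 placed a summit in the windows of the same 6 genes (31.1% of protein-coding genes), and those of replicate 3 in 5 of them (31.1%), without Ddc. The Ddc window thus had a summit among the strongest entries of replicate 1 alone. With 2 samples of 1 group, no test of these differences was made.

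**Figure D3:**
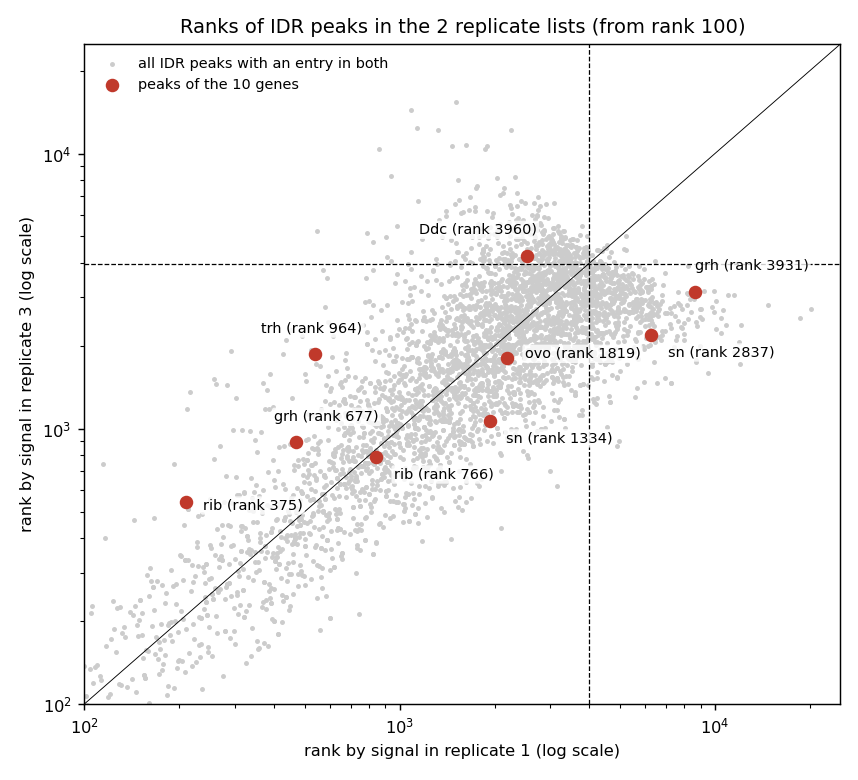
Rank by signal in replicate 1 (x axis) against rank in replicate 3 (y axis), both on log scales from rank 100; grey points are IDR peaks with an entry in both lists and red points are the 9 peaks of these genes, labelled with their rank in the IDR set. Dashed lines mark rank 3974 and the diagonal marks equal ranks. The peaks of grh (rank 3931) and sn (rank 2837) lie beyond the line of replicate 1 and that of Ddc beyond the line of replicate 3.

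Of the 9 windows 5 held a match to 1 or more of the 9 motifs, and 6 of the motifs matched none. The share of all IDR windows with a match to any motif is not given here, so the 5 windows have no background. TGATAC, the core of the Six-type binding site, was in none of the 9 windows and in 6.49% of all IDR windows. None of the 9 held TATCGATA, the DNA replication-related element (3.40% of all IDR windows), GGTCACACT, the M1BP site (1.33%), ACCGGTT of Grh (0.679%), TACGTG of Trh with its partner Tango (4.20%) or ATGCAAAT, the octamer of POU factors (2.79%). TAATTA, a homeodomain core, was at the stronger grh summit (18.4% of all IDR windows), and CNGTTA at the weaker sn summit (24.5%). GAGAG was at 4 summits, those of ovo and Ddc printed above, the weaker of rib and the stronger of grh (22.5%). Within 50 bp GAGAG was at 0 of the 9 summits (9.34% of all IDR summits), and within 150 bp at 6 (35.2%). Both strands were searched, and the matches to GAGAG at ovo overlap one another. The absence of these letters from these windows says nothing about a factor.

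Further genes of the same processes were described by 6 companion lists of 65 genes in all, 25 of which (38.5%) held an IDR summit. Over all protein-coding genes the share was 31.2%. The median window of the 65 was 13.09 kb, and 43.9% of protein-coding genes with windows of 10 to 20 kb held a summit. By nearest protein-coding TSS 21 of the 65 had a summit, against 19.4% of all protein-coding genes. Of 14 genes of tracheal fate and branching 7 were occupied, led by the ETS factor gene pnt (signal 217, in an intron), the FGF receptor adaptor gene stumps (212, 362 bp upstream of its start) and bs, the fly SRF (155, nearest to a start of CG44812). The FGF receptor gene btl and sty, which encodes an antagonist of its signalling, had none. The median window of these 14 genes was 20.7 kb, and 55.2% of protein-coding genes with windows over 20 kb held a summit. The 12 septate junction and tube size genes had a median window of 12.7 kb, and 7 were occupied. Promoter peaks stood at Atpalpha, a sodium pump subunit (247), and Tsf2 (177). By nearest protein-coding TSS 3 of these 12 had a summit, so some of the 7 hold only summits nearer to another gene. A peak in the window of vari (212) was at the promoter of Pomp, and sinu and kune had none.

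Of 12 genes for chitin and apical matrix, 1 had a summit, dpy (signal 131), which encodes a giant apical matrix protein; mmy, which supplies the precursor of chitin, and knk had none. The share was 31.2% over all protein-coding genes and 43.9% over those with windows of 10 to 20 kb. The median window of the 12 genes lies in that range, and no test was made. With kkv, serp and verm, already described above as without a summit, the count becomes 1 of 15 genes. They were added with their result known and could only lower the share, so the count of 15 is not compared with other genes. Of 11 trichome and denticle effectors 4 held a summit, among them cyr (152, at the promoter of CG10958), tyn (147) and dy (130), whereas sha and f did not. Of 8 genes of actin bundles and turnover 4 were occupied, led by tsr, the fly cofilin (268), Fim, a fimbrin (143), and jv (121), but not qua or cpa. In tanning and wound response 2 of 8 were occupied, the receptor kinase gene stit, annotated as Cad96Ca (147), and Pu (104, nearest to CG4286), while ple, which encodes the tyrosine hydroxylase acting before Ddc, and e had none. The median windows of the trichome, actin and tanning lists were 17.7, 10.3 and 10.7 kb.

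**Figure D4:**
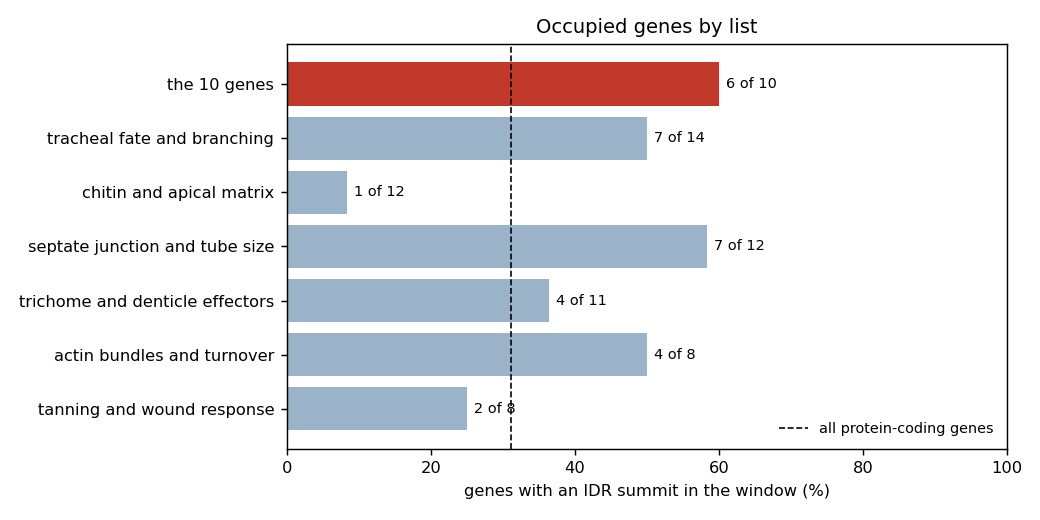
Bars give the share of genes with an IDR summit in their window (x axis, percent) for the 10 genes (red) and 6 companion lists (blue), with counts beside them; the dashed line is the 31.2% of all protein-coding genes. The shares run from 1 of 12 for chitin and apical matrix to 6 of 10, and they are not corrected for window length. The median window was 17.05 kb for the 10 genes, 13.09 kb for the 65 companion genes and 6.17 kb over all protein-coding genes.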

How the data were processed

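Six4-GFP was measured by ChIP-seq in 2 samples of 1 group, and chromatin was sonicated to 200 to 800 bp, per the labels. Per the listing deposited with the samples, each replicate and both pooled gave a list of peaks and background as input for IDR, and the optimal IDR set was derived from these. Which aligner, peak caller and cutoff of IDR the authors used is not given in the sources used here. Signal values and −log10 q values were deposited by the authors; 56.0% of IDR peaks, and 6 of the 9 at these genes, share the highest −log10 q of 3.65, so ranks come from the signal. Read depth is unknown, so no interval was computed.

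Coordinates are dm6, counted from 1. Genes and starts come from Ensembl release 115 (FlyBase 6.54), with transposable elements left out of the starts. All 75 listed genes were found, 2 under another symbol (stit as Cad96Ca, mega as pck). Replicate entries were matched by an overlap of 1 bp or more, taking the strongest, and "strongest entries" means the first 3974. Lists on dm3 were not used here. All members were named; per companion list up to 3 genes with the strongest summit and up to 2 without were named. Members and lists were chosen with earlier results of these data known. Python 3.11.15 and pandas 2.3.3 were used, and the counting steps were tested on simulated data. Nothing says whether the replicates came from separate matings.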

Additional observations from a re-analysis of the deposited data

How the results depend on the processing

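No paired analysis was possible because the samples form 1 group. The count of occupied genes among the 10 stayed within 1.5 times of 6 in every alternative: 5 with windows of 1 kb (without ovo), 6 with 5 kb, 4 for the gene body alone (without ovo and Ddc), 7 by nearest protein-coding TSS (19.4% of such genes; vvl joins), 5 among the 1987 strongest peaks (without Ddc), and 5 to 6 with 1 replicate left out. Over all protein-coding genes the count of 4352 became 3598 with windows of 1 kb and 6095 with 5 kb. At 5 kb the background thus rose while the count of the 10 genes stayed at 6. The all-gene count was 1445 for the gene body alone, 2712 by nearest TSS and 2638 among the 1987 strongest peaks. Among those 1987 peaks the count of companion genes was 14 rather than 25. The gene body is a narrower window, nearest TSS gives each summit to a single gene, and the last setting uses fewer peaks. For summits within 500 bp of a TSS, leaving 1 replicate out was chosen after seeing the data. They numbered 3 of 8 without replicate 1 and 1 of 7 without replicate 3, against 3 of 9 in the IDR set. In all, 6 pairs of summit and motif matched within 100 bp, 1 within 50 bp and 11 within 150 bp. Unknown depth limits what can be said of vvl, serp, verm and kkv: their entries lie below the set, and absence from the set is not absence of binding.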

Other observations

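After the summit windows had been read, TGATAT, which differs from the Six-type core in its last letter, was counted within 100 bp of 5 of the 9 summits and of 16.3% of all IDR summits. It was 1 of 39 words of 6 letters, most of them A and T, present in 5 or more of these windows, among 2080 possible words counted with their reverse complements, so it carries no test.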
